A study of Rattus norvegicus with 12 samples.

Results

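MHC class II genes and their regulators are described here from mesenteric lymph nodes of suckling Wistar rats given conjugated linoleic acid (CLA), a set of fatty acid isomers of dairy fat. Group A pups came from dams on a 1% CLA diet late in gestation and all through suckling, so that CLA reached them by milk (5 weeks of supplementation in all). Group B pups had the same exposure in gestation and then CLA by daily oral gavage while suckling (5 weeks). Group C pups, born to dams on a standard diet, had CLA by gavage in suckling only (3 weeks), and group D pups, of dams on a standard diet throughout, had none (0 weeks). From every group 3 pups aged 21 days, drawn at random from a larger number, had 1 Affymetrix whole-genome rat array each. Which litter each pup came from is not given. The authors' litters were set to the same number of pups as their groups, so a group may be 1 litter. Diet and dam could then not be told apart, and pups of a group would not be independent. A sham gavage of group A or group D is not mentioned in the sources used here. The list names 9 genes, chosen by name when results of these same arrays were known, RT1-Bb above all, so that the counts of members below are a description and stand as evidence of nothing. Of these, 8 genes had 14 probe sets among the 31042 tested on the array. RT1-DOb was matched by none of them and was not analysed here on the arrays.

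MHC class II molecules are pairs of an alpha and a beta chain that carry peptides, mostly from engulfed material, to the surface of B cells, dendritic cells and macrophages, where CD4 T cells read them. In the rat they are encoded in the RT1 complex, with RT1-B and RT1-D as the 2 classical molecules, and these genes are polymorphic, that is, their sequence differs between animals. The invariant chain Cd74 escorts the new pairs and blocks their groove, RT1-DM exchanges what is left of it for peptide, and RT1-DO restrains RT1-DM. Ciita is the co-activator that switches the whole set on, through a complex that sits on short promoter elements called the X and Y boxes. In a lymph node, class II levels depend on how many antigen-presenting cells are present and on how much each makes. In a whole-node RNA sample such as these, fewer cells of a type and less RNA per cell cannot be told apart.

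The promoters of 7 of the 9 genes could be matched in RefSeq (assembly GRCr8, 250 bases before to 50 after the start of the gene), and 5 are printed because their genes bracket what the arrays showed. RT1-Bb had a probe set that was near background in some pups, RT1-Db1 and RT1-DMa had probe sets that were higher in group A, and RT1-Da and Cd74 had none called. The windows are chr20:4604069-4604368 on the minus strand for RT1-Bb, chr20:4515165-4515464 on the plus strand for RT1-Da, chr20:4560113-4560412 on the minus strand for RT1-Db1, chr20:4712286-4712585 on the minus strand for RT1-DMa and chr18:56526956-56527255 on the plus strand for Cd74. Capitals mark the letters of an X box (CAACNGATG, where N is any base) and of a Y box (TGATTGG, an inverted CCAAT), both searched on either strand, and the 2 motifs share no bases in these windows.
RT1-Bb: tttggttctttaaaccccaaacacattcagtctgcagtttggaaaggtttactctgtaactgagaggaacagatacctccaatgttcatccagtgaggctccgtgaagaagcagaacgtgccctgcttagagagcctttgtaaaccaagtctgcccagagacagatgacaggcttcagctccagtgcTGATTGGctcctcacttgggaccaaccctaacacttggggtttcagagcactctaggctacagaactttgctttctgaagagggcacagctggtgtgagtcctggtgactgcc
RT1-Da: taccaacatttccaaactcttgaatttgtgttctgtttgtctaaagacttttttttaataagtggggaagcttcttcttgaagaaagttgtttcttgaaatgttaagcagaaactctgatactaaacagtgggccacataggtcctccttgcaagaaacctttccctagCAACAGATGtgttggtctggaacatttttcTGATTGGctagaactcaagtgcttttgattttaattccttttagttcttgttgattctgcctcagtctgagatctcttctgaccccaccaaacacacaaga
RT1-Db1: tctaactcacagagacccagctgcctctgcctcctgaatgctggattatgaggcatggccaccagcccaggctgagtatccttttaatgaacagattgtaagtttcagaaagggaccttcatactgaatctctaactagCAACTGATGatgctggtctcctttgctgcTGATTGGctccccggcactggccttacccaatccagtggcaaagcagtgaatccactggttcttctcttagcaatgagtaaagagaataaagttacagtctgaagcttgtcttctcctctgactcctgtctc
RT1-DMa: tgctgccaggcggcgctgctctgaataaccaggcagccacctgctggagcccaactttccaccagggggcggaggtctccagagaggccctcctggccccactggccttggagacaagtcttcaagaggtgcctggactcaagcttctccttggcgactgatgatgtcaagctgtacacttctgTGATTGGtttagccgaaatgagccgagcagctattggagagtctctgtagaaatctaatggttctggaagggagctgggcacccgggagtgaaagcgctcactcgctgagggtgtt
Cd74: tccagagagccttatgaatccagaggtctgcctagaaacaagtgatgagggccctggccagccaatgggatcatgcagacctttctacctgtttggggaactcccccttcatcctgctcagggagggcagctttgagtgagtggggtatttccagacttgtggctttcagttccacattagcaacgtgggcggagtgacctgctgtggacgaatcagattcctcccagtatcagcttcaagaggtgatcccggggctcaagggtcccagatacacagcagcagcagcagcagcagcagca
The Y box letters stood in 6 of the 7 promoters, all but Cd74, against 7.06% of 33469 promoters of the same length. The X box letters stood in 3 of the 7 (RT1-Da, RT1-Db1 and RT1-DOb), against 0.586% of all promoters. Both occurred together in those 3 and in 13 promoters in all (0.0388%), of which another is the neighbouring class II gene RT1-Db2. In the members the X box came first, with 21 bases between the motifs in RT1-Da, 20 in RT1-Db1 and 18 in RT1-DOb. The letters were chosen with these promoters in view, so the shares are a description, and a window without a match says only that these exact letters are not in it.

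The levels below are normalized log2 intensities, which differ by 1 where the signal differs 2-fold, and they were compared between groups only within a probe set. Class II signal was strong in every node. The arrays of all groups ran from 12.17 to 12.52 at Cd74 and from 11.65 to 12.25 at RT1-Da, and 12 of the 14 probe sets lay above background on all 12 arrays. The lymph node label was borne out by Cd3e of T cells and Ms4a1 of B cells, above background on every array. The 3 group A arrays had hexokinase 3′/5′ signal ratios, a sign of RNA length, of 2.84 to 4.96, while group B had 1.62 to 3.24, group C 1.82 to 2.62 and group D 1.84 to 2.53, and the part of this in the results was not tested. Group D replicate 3 stood apart: over all probe sets it correlated at 0.931 with group B and 0.930 with group C, against 0.896 with the other group D arrays. Its summed linear signal of smooth muscle markers was 957, against 6810 and 6927 in group D replicates 1 and 2. Groups A, B and C had 1517 to 1664, 857 to 1175 and 761 to 951 there. On that list group D replicates 1 and 2 were the unlike arrays. On epithelium and mesothelium markers replicate 3 stood with them (657, against 445 and 527). Results without replicate 3 rest on group D replicates 1 and 2 alone. Member calls that change without group D replicate 3 are given both ways.

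The RT1-B beta chain, RT1-Bb, was read by 2 probe sets that behaved unlike each other, and each was bright in most pups and nearly dark in others. Probe set 1371065_at read 3.49, 2.13 and 2.92 in group A and 10.45, 9.37 and 9.57 in group B. It read 3.79, 9.59 and 3.45 in group C, against 9.72, 9.48 and 9.75 in group D. All of group A and 2 of the 3 group C pups were thus dim, and the rest were bright with nothing between. In the deposited signal the dim pups gave 4.5 to 13.3 units, while the 7 bright pups gave 460.7 to 1303.6. The mean of group A was 2.85, at the level of the background of its 3 arrays (2.66, 3.20 and 2.73), and group A replicate 2 was within background. The fitted log2 difference from group D of -6.80 therefore rests on values next to background, and with each array taken at the higher of its value and its background group A was at least 87.2-fold lower. In group C the mean difference from group D was -4.04, which joins dim and bright pups and describes neither.

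The other RT1-Bb probe set, 1371033_at, gave the reverse picture. It was bright in group A (11.51, 11.88 and 11.45), in group C (11.21, 10.58 and 11.16) and in group D (10.95, 10.82 and 10.67). In group B it read 3.20, 11.13 and 11.19, so that a single pup, group B replicate 1, was dim. That pup was bright at 1371065_at, and the 5 pups dim at 1371065_at were bright here, so no pup was dim at both. All group A pups were above all group D pups, by a mean of 0.80, in the direction opposite to the first probe set. The difference did not pass by limma over all arrays (adjusted p = 0.775), where the pooled spread includes the dim group B replicate 1. The same difference passed as higher without that array (adjusted p = 0.00751) and with only groups A and D fitted (adjusted p = 0.0226). Whether each probe set matches the RT1-Bb alleles these pups carry was not tested. The within-group SD of the 2 probe sets exceeded that of 99.8% or more of all probe sets.

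**Figure D1:**
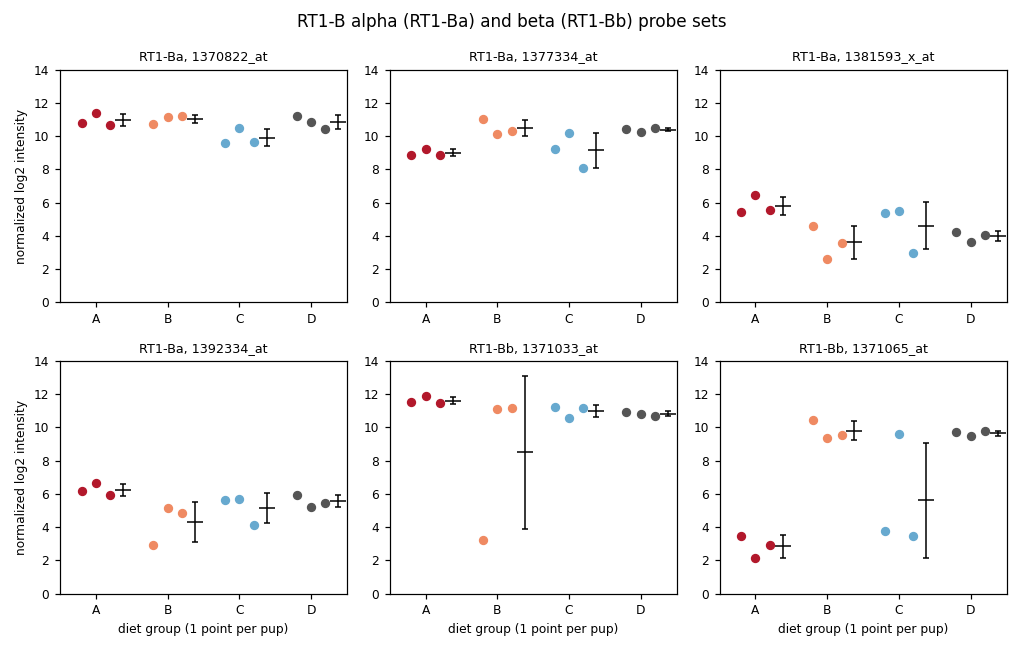
Normalized log2 intensity (vertical axis) of the 4 RT1-Ba and 2 RT1-Bb probe sets in diet groups A, B, C and D, with 1 point per pup and the mean and SD of each group (n = 3) as a bar beside its points. At RT1-Bb 1371065_at the group A points lie at 2.13 to 3.49 and the group D points at 9.48 to 9.75, while at 1371033_at only 1 group B pup is dim, at 3.20.

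The partner chain, RT1-Ba, had 4 probe sets, 2 bright and 2 dim, which differed in direction. The bright 1370822_at read 10.80, 11.37 and 10.70 in group A and 10.75, 11.15 and 11.23 in group B. Pups of group C read 9.58, 10.51 and 9.67, against 11.24, 10.87 and 10.44 in group D. Group C sat lowest, by 0.93 against group D with 1 overlapping pup (SE 0.27, adjusted p = 0.167). Without group D replicate 3 that difference was -1.14 with an adjusted p = 0.0118.

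The second bright RT1-Ba probe set, 1377334_at, read 8.87, 9.24 and 8.89 in group A, and 11.04, 10.11 and 10.29 in group B. Group C gave 9.25, 10.17 and 8.07, against 10.43, 10.27 and 10.48 in group D. All pups of group A and of group C were below all of group D. Group A fell 2.63-fold relative to group D (log2 difference -1.40, SE 0.39, adjusted p = 0.0240), and this call was lost when group A replicate 1 or 3 or group D replicate 1 was left out (adjusted p between 0.0541 and 0.0749). The difference of group C was -1.23 (SE 0.39, adjusted p = 0.179), a mean that joins pups at 9.25 and 8.07 with a pup at 10.17. The pups dim at RT1-Bb 1371065_at were also the lowest here, and both probe sets correlated at r = 0.905 over the 12 arrays. Whether 1377334_at matches the RT1-Ba alleles these pups carry was not tested. Group B differed from group D by 0.09 (adjusted p = 0.944).

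The 2 dim RT1-Ba probe sets leaned the other way. Probe set 1381593_x_at read 5.47, 6.45 and 5.54 in group A and 4.61, 2.62 and 3.60 in group B. In group C it read 5.40, 5.49 and 2.99, against 4.26, 3.65 and 4.04 in group D. All group A pups were above all of group D by a mean of 1.84, which did not pass the test (SE 0.65, adjusted p = 0.0649), and above all of group B by 2.21 (adjusted p = 0.0198), a call lost without group A replicate 2 (adjusted p = 0.0847), group B replicate 2 (0.0904) or group B replicate 3 (0.0535). The fourth, 1392334_at, read 6.20, 6.64 and 5.91 in group A and 2.95, 5.16 and 4.88 in group B. The values were 5.64, 5.67 and 4.11 in group C, against 5.95, 5.24 and 5.48 in group D. Here group B was below group D in every pup, with a log2 difference of -1.23 (adjusted p = 0.300) that was -0.54 without group B replicate 1 and -1.64 without group B replicate 2, and group A differed from group D by 0.69 (adjusted p = 0.433).

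The alpha chain of RT1-D was far steadier on the normalized scale. RT1-Da (1370883_at) read 11.86, 11.89 and 11.65 in group A and 11.99, 12.05 and 12.15 in group B. Pups of group C read 11.98, 12.20 and 11.82, against 12.08, 11.89 and 12.25 in group D. Group A lay 0.28 below group D (log2 difference -0.28, SE 0.13, adjusted p = 0.154), with group A replicate 2 close beside group D replicate 2. In the deposited signal RT1-Da ran from 2463.1 to 6621.4 units. It lay at the 99.7th percentile of level, and the part of the normalization in its narrow range was not tested.

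The beta chain RT1-Db1 was higher in group A at its brighter probe set, 1370383_s_at. That probe set read 10.97, 11.06 and 10.98 in group A and 10.46, 10.51 and 10.62 in group B. In group C it read 10.39, 10.69 and 10.55, against 10.55, 10.31 and 10.72 in group D. All 3 group A pups were above the other 9. Group A rose 1.39-fold relative to group D (log2 difference 0.48, SE 0.12, adjusted p = 0.0127), a call lost without group A replicate 2 (adjusted p = 0.0515) or group D replicate 2 (0.0520). By their ending, both 1370383_s_at and 1381593_x_at can hybridize to more than 1 transcript, so that their signal may be shared with related RT1 genes. The other RT1-Db1 probe set, 1370382_at, varied within groups, with 6.95, 9.28 and 6.61 in group A and 6.76, 8.22 and 8.23 in group B. The values were 6.61, 5.64 and 5.77 in group C, against 8.50, 8.02 and 5.45 in group D. There the difference of group A from group D was 0.29 with all arrays and -0.64 without group D replicate 3, and that of group C was -1.31 with all arrays (adjusted p = 0.412) and -2.25 without it (adjusted p = 0.0327).

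Both chains of RT1-DM, the peptide exchange factor, were higher in group A. RT1-DMa (1370904_at) read 9.33, 9.30 and 9.23 in group A and 8.35, 8.11 and 8.61 in group B. Pups of group C read 8.22, 8.32 and 8.20, against 8.90, 8.51 and 8.24 in group D. Every group A pup exceeded every other pup, and the rise over group D was 1.67-fold (log2 difference 0.74, SE 0.16, adjusted p = 0.00620). RT1-DMb (1370882_at) read 10.30, 10.49 and 10.17 in group A and 9.57, 9.54 and 9.61 in group B. In group C it read 9.36, 9.75 and 9.01, against 9.93, 9.63 and 9.49 in group D. Again the group A pups stood above all others, and RT1-DMb rose 1.55-fold relative to group D (log2 difference 0.63, SE 0.17, adjusted p = 0.0191). The RT1-DMb call was lost without group A replicate 2 (adjusted p = 0.0839) or group D replicate 2 (0.0552). In groups B and C the 2 chains lay below group D by small amounts that did not pass, with log2 differences of -0.19 and -0.11 for group B pups and -0.30 and -0.31 for group C pups. Without group D replicate 3, RT1-DMa in group C passed as lower (-0.46, adjusted p = 0.0440).

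The invariant chain Cd74 (1367679_at) was the steadiest member. It read 12.51, 12.52 and 12.49 in group A and 12.38, 12.27 and 12.41 in group B. The values were 12.20, 12.31 and 12.17 in group C, against 12.47, 12.26 and 12.34 in group D. Its whole range over 12 pups was 0.34, narrower than in all but 0.7% of the probe sets with a mean of at least 5. In the deposited signal, not scaled between arrays, Cd74 ran from 3154.1 to 8405.7 units. It lay at the 99.9th percentile of level, and the normalization sets values of the same rank alike on every array. The part of this in the narrow range was not tested. The group A pups were above all group D pups, by a mean of 0.15 that did not pass (SE 0.10, adjusted p = 0.329), and the sign of this difference turned on the deposited scale, without normalization between arrays (-0.18).

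The co-activator Ciita was also higher in group A at the brighter of its 2 probe sets. At 1379381_at it read 8.94, 9.0 and 8.98 in group A and 8.37, 8.14 and 8.39 in group B. Pups of group C read 8.30, 8.84 and 8.42, against 8.12, 8.05 and 8.40 in group D. All group A pups exceeded the other 9, and group A rose 1.72-fold relative to group D (log2 difference 0.78, SE 0.15, adjusted p = 0.00241). Group C lay 0.33 above group D (adjusted p = 0.261), or 0.44 above without group D replicate 3 (adjusted p = 0.0488). The probe set 1369214_a_at, whose ending marks alternative transcripts of 1 gene, read 7.33, 6.91 and 6.99 in group A and 6.91, 6.73 and 6.64 in group B. In group C it read 6.63, 6.83 and 6.61, against 7.02, 6.63 and 6.76 in group D. There groups A and D overlapped, with a difference of 0.28 (SE 0.16, adjusted p = 0.263).

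**Figure D2:**
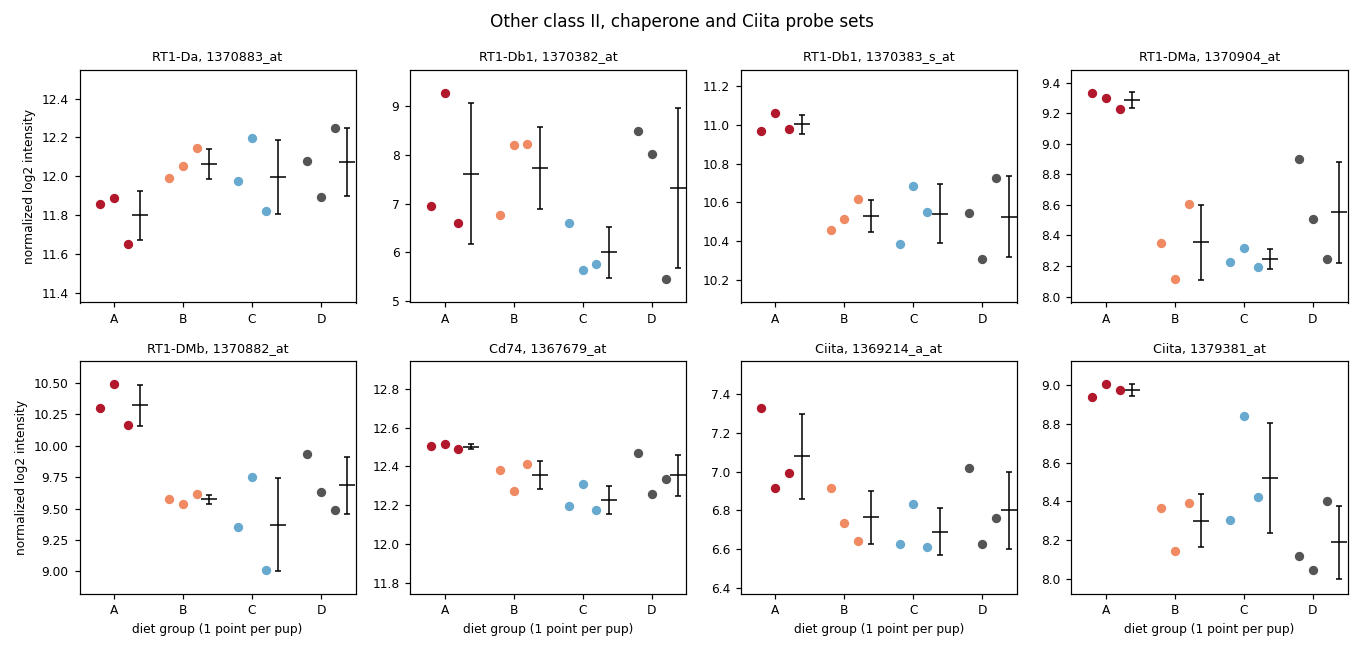
Normalized log2 intensity (vertical axes, each with its own range) of the RT1-Da, RT1-Db1, RT1-DMa, RT1-DMb, Cd74 and Ciita probe sets in diet groups A, B, C and D, with 1 point per pup and the group mean and SD (n = 3) as a bar. At RT1-DMa the group A pups lie at 9.23 to 9.33 and all others at or below 8.90, and at Ciita 1379381_at the group A pups lie at 8.94 to 9.0 and all others at or below 8.84.

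Counted over the 14 probe sets, CLA through dam and milk (group A) against none (group D) left 2 lower, 1 each of RT1-Bb and RT1-Ba, and 4 higher, 1 each of RT1-Db1, RT1-DMa, RT1-DMb and Ciita, by limma at an adjusted p under 0.05. Over all probe sets 10.2% were lower and 10.1% higher, and since the members were listed with these arrays known, nothing is read from the difference. The members' median log2 difference was 0.38, beside 0.07 over all probe sets. The pups of the 2 groups did not overlap at 3 probe sets that were lower and 7 that were higher in group A, beside 14.6% and 19.2% of all probe sets. Of the 4 that were higher, only Ciita kept its call under every alternative tried. RT1-DMa lost it without normalization between arrays (adjusted p = 0.0843), as did RT1-DMb (0.213) and RT1-Db1 (0.322), and without a trend in the variance RT1-DMb (0.0673), RT1-Db1 (0.0645) and RT1-Ba 1377334_at (0.0653) did not pass. RT1-Db1 also missed with only groups A and D fitted (0.0648), and RT1-Ba 1377334_at with a floor of 32 (0.0743).

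Group B, with gestational CLA followed by gavage, gave 0 calls among the 14 against group D by limma, and 1 lower and 0 higher at an unadjusted p under 0.05. Over all probe sets 0.00966% were called lower and 0.00644% higher, and 7.2% were lower and 8.58% higher at the unadjusted p. Without group D replicate 3 the 14 again gave 0 calls by limma (1 lower and 0 higher at an unadjusted p under 0.05), where 7.81% of all probe sets were lower and 9.5% higher. The members' median difference was -0.01, beside -0.04 over all, and the pups failed to overlap at 1 probe set, RT1-Ba 1392334_at, lower in group B (7.92% of all probe sets lower and 6.7% higher). Group C, with gavage in suckling only, likewise gave 0 calls among the 14 by limma, and 3 lower and 1 higher at an unadjusted p under 0.05, where the whole array had 8.27% lower and 9.41% higher at the unadjusted p, and 0.029% called lower and 0.0226% higher at the adjusted one. Its median difference was -0.22, beside -0.04 over all, and RT1-Ba 1377334_at was the 1 probe set without overlap (8.1% of all probe sets lower and 6.82% higher). Without group D replicate 3, group C had 3 called lower (RT1-Ba 1370822_at, RT1-Db1 1370382_at and RT1-DMa) and 1 higher (Ciita 1379381_at), where 9.14% of all probe sets were lower and 10.3% higher. The 3 comparisons share the group D arrays. Groups of 3 cannot give an exact permutation p below 0.1 for a single value, so no such test was added.

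**Figure D3:**
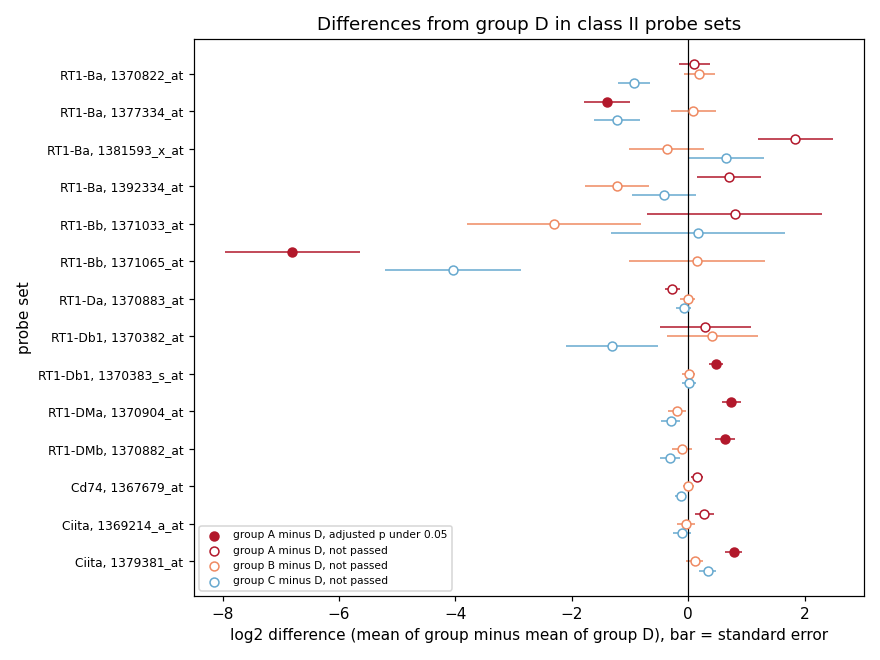
Log2 difference of the group mean from the mean of group D (horizontal axis, bars are standard errors of the fit) for the 14 probe sets, with group A above group B above group C in each row. Filled points passed an adjusted p under 0.05 over all probe sets, and only group A has any, 2 to the left and 4 to the right.

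Milk (group A) against gavage (group B) in suckling gave more calls among the members than group A against group D. It also gave more over all probe sets, where group A against group D had 10.2% lower and 10.1% higher. The authors separated litters from dams before gavage and reported other isomer proportions in the plasma of group B. The route alone cannot be told apart from these. Of the 14 probe sets, 2 were lower in group A (RT1-Bb 1371065_at and RT1-Ba 1377334_at) and 6 higher, beside 14.5% lower and 16.8% higher over all probe sets. RT1-DMa was 1.91-fold higher in group A than in group B (log2 difference 0.93, adjusted p = 0.000873), and RT1-DMb was 1.68-fold higher (0.75, adjusted p = 0.00505). Ciita 1379381_at was 1.59-fold higher (0.67, adjusted p = 0.00375) and RT1-Db1 1370383_s_at 1.39-fold higher (0.47, adjusted p = 0.00840). The other 2 that were higher were the dim RT1-Ba probe sets, 1381593_x_at (above) and 1392334_at (1.92, adjusted p = 0.0167), whose call was lost without group A replicate 2 (adjusted p = 0.0671) or group B replicate 1 (1.23, adjusted p = 0.0590). The call of RT1-Ba 1377334_at (-1.48, adjusted p = 0.0116) was lost without group B replicate 1 (adjusted p = 0.0551) and without normalization between arrays (-0.83, adjusted p = 0.161). The members' median was 0.39, beside 0.10 over all. Gestational CLA among the gavaged pups (group B against group C) gave 0 calls among the 14 by limma, and 0 lower and 4 higher at an unadjusted p under 0.05, where 1.96% of all probe sets were lower and 2.04% higher. At the adjusted p, 0% of all probe sets were called lower and 0.00322% higher. The widest of these after RT1-Bb was RT1-Db1 1370382_at, with a log2 difference of 1.73 and an adjusted p = 1.

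The class II promoter complex, which Ciita docks on, was measured for all 7 listed genes at 1 probe set per gene, and 1 was called in group A against group D. Rfx5, a subunit of the factor that binds the X box, read 8.93, 9.13 and 9.08 in group A, against 8.29, 8.14 and 8.81 in group D, and rose by 0.63 (adjusted p = 0.0108). Its co-subunits Rfxank (0.95, adjusted p = 0.390) and Rfxap (0.30, adjusted p = 0.125) did not pass. Over all 14217 genes taken 1 probe set each, 12% were lower and 16% higher in group A than in group D, and the members gave 0 lower and 4 higher of 8 on that basis. Against group B, group A had 1 gene of the complex lower, Creb1, and 3 higher, Nfya and Nfyc of the Y box factor and Rfxap, beside 15% and 26.9% of all genes. Creb1, a factor of the element beside the X box, had a log2 difference of -1.47 there.

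Inputs to Ciita split evenly. Of 9 measured genes, 2 were lower in group A than in group D and 2 higher, beside 12% and 16% of all genes. Jak2, a kinase of the interferon gamma receptor, read 4.92, 4.08 and 5.43 in group A, against 7.00, 6.57 and 7.69 in group D, and fell by 2.28 on the log2 scale (adjusted p = 0.000310). Jak1, its partner kinase, fell by 0.64 (adjusted p = 0.000430), while the receptor chain Ifngr2 rose by 0.81 (adjusted p = 0.00169). Irf2, a member of the interferon regulatory factor family, rose by 1.04 (adjusted p = 0.000334). Irf1, the family member that interferon gamma induces, differed by 0.06 (adjusted p = 0.838). Prdm1, a repressor of Ciita in plasma cells, differed by 0.52 (adjusted p = 0.0985). Ifng itself, the cytokine, was within background on 11 of the 12 arrays, so no level or change can be given for it.

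Processing and traffic genes also divided. Of 11 measured, 2 were lower in group A than in group D and 2 higher, beside 12% and 16% of all genes. Cathepsin S, Ctss, which trims the invariant chain, read 9.58, 9.64 and 9.66 in group A, against 10.42, 10.18 and 10.29 in group D, with no overlap, and fell by 0.67 (adjusted p = 0.000794). Cathepsin L, Ctsl, fell by 1.18 (adjusted p = 0.00728), while Ctsd rose by 0.49 (adjusted p = 0.0124) and Ctsf, which can also cut the invariant chain, rose by 0.70 (adjusted p = 0.0130). The lysosomal reductase Ifi30 differed by 0.06 (adjusted p = 0.770), and RT1-DOa was not analysed here. Marchf1, a ubiquitin ligase that removes class II from the surface, was lower in group A than in group B (log2 difference -1.68, adjusted p = 0.000953). Set against group D, Marchf1 differed by -0.61 in group A (adjusted p = 0.171), 1.06 in group B (adjusted p = 0.202) and 1.00 in group C (adjusted p = 0.167). Of 5 measured genes that give or receive T cell help beside class II, 1 was called in group A against group D, the co-stimulator Cd86, which fell by 0.84 (adjusted p = 0.00746). In groups B and C, 0 genes of these 4 lists were called against group D by limma, with 3 lower and 2 higher at an unadjusted p under 0.05 for group B and 4 lower and 2 higher for group C. At that unadjusted p, 10.5% of all genes were lower and 6.47% higher for group B, and 12.2% and 7.42% for group C. At the adjusted p, 0.0141% of all genes were called lower and 0.00703% higher for group B, and 0.0352% and 0.00703% for group C. Without group D replicate 3 the 32 genes of the 4 lists gave 1 lower and 4 higher for group B, where 12.8% of all genes were lower and 7.15% higher. For group C they then gave 4 and 4, where 15% of all genes were lower and 8.04% higher. Group B against group C gave 0 calls in them too (1 lower and 1 higher at an unadjusted p under 0.05, beside 1.93% and 1.96% of all genes), with 0% of all genes called in either direction.

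**Figure D4:**
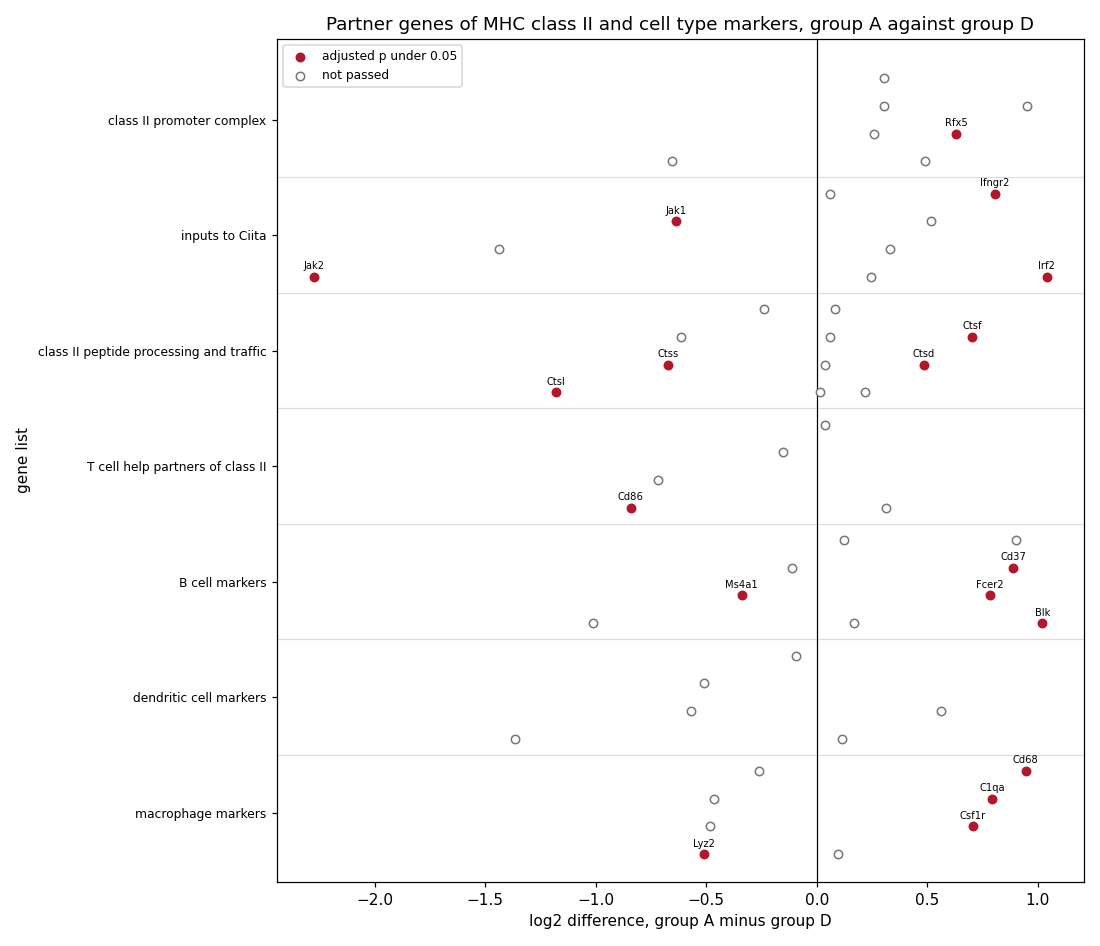
Log2 difference of group A minus group D (horizontal axis) for each measured gene of 4 class II partner lists and 3 cell type marker lists (rows, 1 point per gene, spread vertically for legibility). Filled, named points passed an adjusted p under 0.05, and they fall on both sides of 0 in every list that has more than 1.

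With all arrays, markers of the cells that carry class II were called in both directions in group A. Over all genes, 12% were called lower and 16% higher in group A than in group D, and the list counts stand beside these shares. Of 9 measured B cell markers, 1 was lower in group A than in group D (Ms4a1, -0.34, adjusted p = 0.0405) and 3 higher (Cd37, Blk and Fcer2, by 0.78 to 1.02). The summed linear signal of the B cell list was 3917 to 4531 in group A pups, 4895 to 5170 in group B pups and 4583 to 5193 in group C pups, against 3143 to 4323 in group D pups. Cd79a was not analysed here. Of 6 measured dendritic cell markers 0 were called in group A against group D by limma (at an unadjusted p under 0.05 Clec9a was lower and Batf3 higher, beside 16.4% of all genes lower and 24.8% higher), and their summed signal was 1188 to 1540 for group A, 1335 to 1534 for group B and 1274 to 1480 for group C, against 1210 to 1508 in group D. Itgax, the dendritic integrin CD11c, read 6.77, 5.92 and 5.61 in group A, against 6.75, 6.60 and 6.48 in group D. Of 8 macrophage markers, 1 was lower in group A (Lyz2) and 3 higher (Csf1r, Cd68 and C1qa), with sums of 6394 to 7019 for group A, 6213 to 7320 for group B and 5436 to 6670 for group C, against 6130 to 8027 for group D. Markers of plasma cells, which switch Ciita off, had 3 of 6 higher in group A, and their summed signal reached 2155 to 2281 for group A, 1303 to 1604 for group B and 1299 to 1955 for group C, against 1211 to 1851 in group D. T cell markers had 1 lower and 1 higher of 10, endothelium 1 and 1 of 5, fibroblast 2 and 0 of 6, smooth muscle 3 and 0 of 6 and epithelium with mesothelium 3 and 0 of 5. In groups B and C the keratin gene Krt8 was the 1 gene of these marker lists called against group D, as lower. Without group D replicate 3, 4 B cell markers were higher and 0 lower in each of groups A, B and C (limma), and all 6 smooth muscle genes were lower in each. Group A then had 13.4% of all genes lower and 14.6% higher, and gave 2 macrophage markers lower and 1 higher, 1 plasma cell marker lower and 2 higher, and 3 epithelium and mesothelium markers lower. Groups B and C, with the shares of all genes given above, had 3 and 2 plasma cell markers lower, 1 and 2 dendritic cell markers lower and 4 and 3 epithelium and mesothelium markers lower. The part of these cells in the class II values was not tested.

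The genes whose pattern was most like a member's were found by Pearson's r over the 12 arrays, given as a description, since the arrays share groups and normalization. RT1-Bb 1371065_at was followed by Bloc1s5 (r = 0.946), Cd8a at probe set 1369877_at (0.922), Ctss (0.921), Nifk (0.915) and the class I gene RT1-A at 1370429_at (0.915). That RT1-A probe set read 5.57, 5.77 and 5.26 in group A and 8.63, 7.45 and 7.65 in group B. The values were 4.25, 7.54 and 4.15 in group C, against 7.85, 7.36 and 8.13 in group D. The 5 pups dim at RT1-Bb were also the 5 lowest at RT1-A, and likewise at Bloc1s5, Cd8a, Ctss and Nifk. All of these were picked from 11789 probe sets for their likeness to RT1-Bb 1371065_at, so shared low pups follow in part from the choice. RT1-Bb 1371033_at was most like Cdca4 (0.924), which was lowest in the same group B replicate 1, at 1.57. Cd74 was most like Bag4 (0.939), Fbxo31 (0.933) and Csrnp1 (0.923), and Ciita 1379381_at most like Cerk (0.953), Spen (0.952) and Cnnm3 (0.943). At Spen, group A read 7.84, 7.67 and 7.75, and group C replicate 2, the highest of group C at Ciita, was highest there too, at 7.47. Cdca4 and Spen were picked in the same way, so the low or high pups they share follow in part from the choice.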

How the data were processed

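Total RNA of mesenteric lymph nodes from 12 pups was hybridized to 12 arrays. The authors deposited MAS5 signal intensity for 31099 probe sets, not scaled between arrays (medians 19.3 to 38.5). In their own analysis they normalized in GeneSpring to the median of the control samples. Here 30 zeros took the smallest positive value, log2 intensities were quantile normalized with a floor of 1, and 57 control probe sets were left out. Groups were compared with limma 3.58.1 (R 4.3.3) as 5 contrasts of group means over all 12 arrays (eBayes with trend, two-sided), with Benjamini-Hochberg adjustment over 31042 probe sets and calls at an adjusted p under 0.05. The p-values measure the spread between these pups, and not that between litters, as the litters are not given. Background was the 95th percentile of 27 spike probe sets not added to the samples.

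Platform gene numbers were updated through RefSeq (GRCr8), giving 20826 probe sets 1 symbol, 436 several and 9780 none. Lists used the brightest probe set of each of 14217 genes. Members, lists and named genes were chosen with earlier results of these data known. All member probe sets were named, and from other lists genes called in any comparison (at most 6 a list) and set defining markers. Likeness used the 5 highest r among probe sets with a mean of at least 5. The script was tested on simulated data. Alternatives were no normalization, 75th percentile centring, a floor of 32, leaving out the dimmest 40%, no trend, only the groups compared, unadjusted p, a replicate block and leaving out each array.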

Additional observations from a re-analysis of the deposited data

Results flagged for a closer look

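For 8 probe sets the difference from group D was not alike in groups A and B, by the limma contrast of group A against group B. RT1-Bb 1371065_at differed by -6.95 between group A and group B (-6.80 in group A and 0.14 in group B, each against group D), given as a description. RT1-Ba 1377334_at differed by -1.48 (-1.40 in group A and 0.09 in group B), RT1-Ba 1381593_x_at by 2.21 (1.84 and -0.37) and RT1-Ba 1392334_at by 1.92 (0.69 and -1.23). RT1-DMa differed by 0.93 (0.74 in group A and -0.19 in group B), RT1-DMb by 0.75 (0.63 and -0.11), Ciita 1379381_at by 0.67 (0.78 and 0.11) and RT1-Db1 1370383_s_at by 0.47 (0.48 and 0.00 on the log2 scale). No cause was tested.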

How the results depend on the processing

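Of 248 checks of single differences under alternatives, 219 kept direction and side of the threshold, 9 lost the call, 18 gained one and 2 turned sign. These were, without normalization between arrays, Cd74 in group A against group D (-0.18) and Ciita 1379381_at in group C against group D (-0.35). The differences of groups B and C from group D, and of group B from group C, were picked at an unadjusted p under 0.05. That p was also an alternative, so their gains under it were fixed in advance and show nothing about processing. Leaving out 1 array at a time (372 checks) kept 349, lost 13, gained 6 and turned 4. RT1-Ba 1370822_at in group A against group D ranged from -0.10 (with either group A replicate 2 or group D replicate 3 left out) to 0.30, and RT1-Db1 1370382_at from -0.64 to 0.88 (-0.54 without group A replicate 2). Arrays of this number limit the precision, and dim probe sets near background are measured least well.

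Without normalization the median of all probe sets against group D moved to -0.12 for group A, -0.55 for group B and -0.70 for group C, and to 0.39 in group A against group B and 0.14 in group B against group C. All probe sets in group A against group D then gave 2695 lower and 419 higher, instead of 3175 and 3138, group A against group B 2240 and 6170, and group C against group D 7009 lower (22.6%) and 49 higher. Among the 14 class II probe sets, group A against group D gave 1 higher and group C against group D 8 lower on that scale, and group A against group B 1 lower. The class II calls in group A against group D were 1 lower with a floor of 32 and 1 lower and 2 higher without a variance trend. At an unadjusted p there was 1 lower for group B and 3 lower and 1 higher for group C, each against group D, and 4 higher in group B against group C. Leaving out 1 array gave 1 to 2 lower and 2 to 5 higher in group A, 0 in group B and 0 to 3 lower and 0 to 1 higher in group C against group D, 1 to 2 lower and 4 to 6 higher in group A against group B, and 0 to 1 higher in group B against group C.

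For the 32 measured pathway genes, group A against group D (5 lower and 5 higher) gave 3 lower and 1 higher without normalization, 8 higher with 75th percentile centring, 3 lower with only the 2 groups fitted and 10 higher unadjusted. Group B gave 3 lower and 2 higher unadjusted, and group C 15 lower without normalization and 4 lower and 2 higher unadjusted. Group A against group B (8 and 8) gave 3 lower and 14 higher without normalization and 13 higher with centring, and group B against group C 1 and 1 unadjusted. Leaving out 1 array gave 5 to 6 lower and 3 to 7 higher in group A, 0 to 1 and 0 to 4 in group B and 0 to 4 and 0 to 4 in group C against group D, and 7 to 8 and 7 to 11 in group A against group B.

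For the 61 measured marker genes, group A against group D (12 lower and 11 higher) gave 3 higher without normalization, 7 and 7 without a trend and 6 and 6 with only the 2 groups. Group B (1 lower) gave 10 lower without normalization, 2 with a floor of 32, 0 with only the 2 groups, and 16 lower and 6 higher unadjusted. Group C (1 lower) gave 37 lower without normalization, 2 with a floor of 32 or without the dimmest 40%, 0 with only the 2 groups, and 22 lower and 6 higher unadjusted. Group A against group B (9 lower) gave 1 lower without normalization and 5 with a floor of 32. Leaving out 1 array gave 5 to 17 lower and 5 to 13 higher in group A, 1 to 17 and 0 to 4 in group B and 1 to 20 and 0 to 5 in group C against group D, and 5 to 10 and 11 to 22 in group A against group B. The highest counts of groups B and C came without group D replicate 3, an alternative added after seeing the data for the single lists. The cause of these changes was not tested.

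Replicate numbers are shared by the groups but did not pair the samples: of 18 pairs with the same number, 0 had deviations correlated above 0.1 (-0.015 to 0.083). With a replicate block the class II calls in group A against group D were 2 lower and 4 higher, as without it, and those over all probe sets 3219 and 3168.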
